A study of Mus musculus with 6 samples.

Results

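The genes described here are 10 components of bacterial endotoxin sensing and Toll-like receptor (TLR) signalling in mouse liver: Lbp, Cd14, Ly96, Tlr2, Tlr3, Tlr4, Tlr5, Myd88, Ticam1 and Nfkbia. They were chosen by symbol for their place in the pathway, and each matched 1 of the 39179 Ensembl gene identifiers in the count files. Liver RNA came from C57BL/6J mice that ate a high-fat diet, with 60% of its energy from fat, for 21 weeks starting at 5 weeks of age. Pathology of haematoxylin and eosin sections sorted the obese mice into isolated steatosis (3 samples, steatosis 1 to 3) and nonalcoholic steatohepatitis, NASH (3 samples, NASH 1 to 3). Both groups therefore share strain, diet and age as labelled, and differ in histological class, with no transgene and no added agent. No lean liver was analysed here. The labels imply separate mice without stating it, so p-values measure the spread between these samples.

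Endotoxin, or lipopolysaccharide (LPS), reaches the liver from the gut through the portal vein. LPS-binding protein (Lbp), which hepatocytes secrete, hands single LPS molecules to CD14, and CD14 passes them to the complex of MD-2 (the product of Ly96) with TLR4. TLR4 then signals through MyD88 from the plasma membrane and through TRIF (the product of Ticam1) from endosomes. TLR2 binds bacterial lipoproteins, TLR5 binds flagellin, and TLR3 binds double-stranded RNA and uses TRIF alone. Both adaptor routes reach NF-kB, which IkappaB-alpha (the product of Nfkbia) holds in the cytoplasm. Nfkbia is itself a target gene of NF-kB. In liver, Kupffer cells, the resident macrophages, are the best known site of this response.

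Total gene counts ran from 13909238 to 18002095 per library, of which mitochondrially encoded genes took 62.0% to 83.9%. Reads at Lars2, Gm26917, Gm23935 and Gm42418, 4 loci that hold stretches like rRNA, took 22.3% of NASH 3 and 8.96% of steatosis 2, and at most 1.06% of any other library. Between 2185922 and 5149189 counts per library were left for all other genes, so rare transcripts were thinly sampled. Levels are CPM values, read counts relative to a library size scaled by TMM, a factor that evens out composition. On that scale 1 read was worth 0.0371 CPM in steatosis 3 and 0.0908 CPM in NASH 3, the extremes of the 6 libraries. The 8 hepatocyte markers, led by Alb, summed to 9765 to 12895 CPM and the 12 Kupffer markers to 39.8 to 86.3 CPM, and 0 markers of either list were without a count.

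The 10 genes spanned a wide range of abundance. Divided by the merged length of their exons, mean steatosis levels ran from 6.51 ± 2.04 CPM per kb for Nfkbia (SD, n = 3) to 0.0235 ± 0.00281 for Tlr4 (SD, n = 3). The order of steatosis means per kb was Nfkbia, Lbp, Myd88, Ly96, Ticam1, Tlr5, Cd14, Tlr3, Tlr2 and Tlr4. Neighbours in this order whose steatosis ranges overlapped were Nfkbia and Lbp, Lbp and Myd88, Ly96 and Ticam1, and Cd14 and Tlr3. In NASH the order was Lbp, Nfkbia, Ticam1, Ly96, Myd88, Tlr5, Cd14, Tlr3, Tlr2 and Tlr4. There the neighbours apart in range were Nfkbia from Ticam1, Myd88 from Tlr5, and Tlr2 from Tlr4. Ticam1 stood in the fifth place in steatosis and the third in NASH, and Myd88 in the third and the fifth.

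The groups were compared with edgeR's quasi-likelihood test, two-sided, over all 11375 genes that passed a filter on low counts. Calls were made at a Benjamini-Hochberg adjusted p under 0.05. Of the 10 members 8 passed the filter, and Tlr2 and Tlr4 did not. None of the 8 was called higher or lower by edgeR, against 4.82% of all tested genes (1.49% higher and 3.33% lower). DESeq2 and limma-voom also called 0 members, against 8.57% of 9818 and 4.64% of 11375 genes. DESeq2 gave no adjusted p for Cd14, which could thus not be called there. At an unadjusted edgeR p under 0.05 there were 2 of 8, Ticam1 and Myd88, against 23.2% of all tested genes. The groups did not overlap in 3 of 8, Ticam1, Myd88 and Tlr5, a share of 37.5% against 29.3% of all tested genes, which is near the background. The log2 fold change was above 0 in 3 and below 0 in 5 of the 8, with a median of -0.09 against 0.01 over all tested genes. When the filter on low counts was dropped, Ticam1 and Myd88 were called in opposite directions (edgeR adjusted p = 0.0263 and 0.0217), in a fit that called 7.31% of 19803 genes. Each other fit called 0 members. With steatosis 1, 2 or 3 left out these fits called 0.989%, 0.974% and 4.08% of their genes, with NASH 1, 2 or 3 left out 1.53%, 1.72% and 1.91%, and without steatosis 2 and NASH 3 together 0.31%. DESeq2 size factors, upper-quartile factors and library sizes over the other genes gave 4.43%, 4.62% and 3.53%, the stricter filter 5.35% and the replicate block 4.1%.

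**Figure D1:**
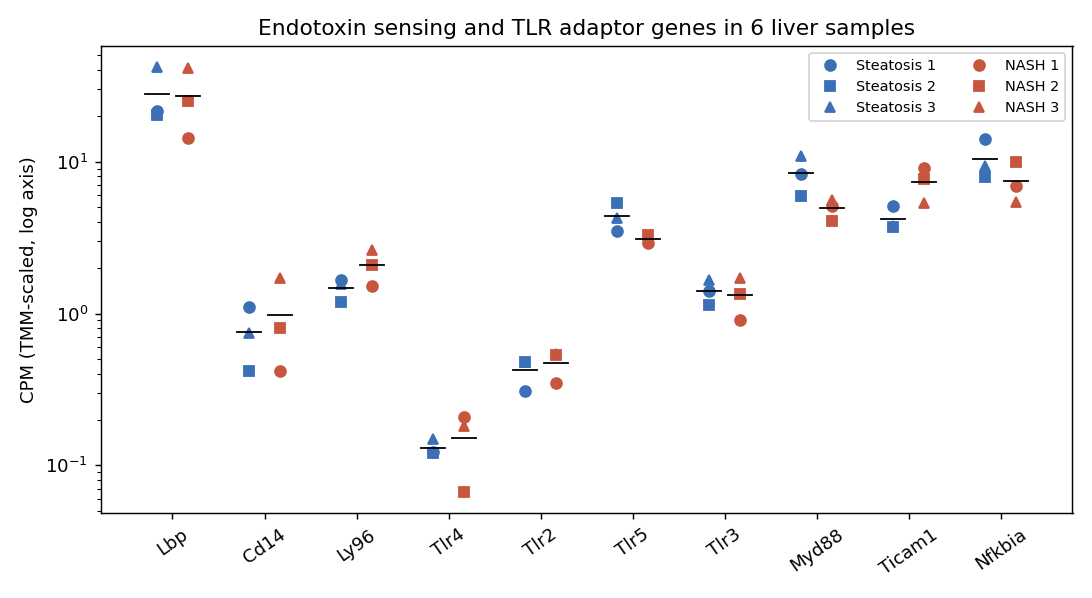
CPM of the 10 genes in each of the 6 liver samples on a log axis, with steatosis in blue and NASH in red, a marker shape for each replicate number and a bar at each group's mean. Lbp reached 41.9 CPM in steatosis 3 and 41.3 CPM in NASH 3, while Tlr4 stayed at or under 0.208 CPM in each library; the group ranges are apart for Ticam1, Myd88 and Tlr5.

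Lbp lies on chromosome 2 (ENSMUSG00000016024, chr2:158306493-158332852, GRCm38, plus strand) and was the most counted member. Its levels were 21.7, 20.4 and 41.9 CPM in steatosis 1, 2 and 3 and 14.4, 25.0 and 41.3 CPM in NASH 1, 2 and 3. Steatosis 3 and NASH 3 were nearly alike and well above the other 4, so the groups overlapped throughout. The log2 fold change was -0.06 (SE 0.38, adjusted p = 0.943 by edgeR), with a 95% interval from 0.531-fold to 1.72-fold. The sign of this value turned without steatosis 3 (0.37), without NASH 1 (0.24) and without NASH 2 (0.01).

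Cd14 (ENSMUSG00000051439, chr18:36725067-36726798, minus strand), the LPS acceptor on myeloid cells, was far rarer. Steatosis 1, 2 and 3 held 18, 7 and 20 counts of it, and NASH 1, 2 and 3 held 6, 12 and 19, or 1.11, 0.420 and 0.742 CPM against 0.417, 0.804 and 1.73 CPM. NASH 3 held the highest level and NASH 1 the lowest, so NASH alone spanned the whole steatosis range. For Cd14 the estimate was a log2 fold change of 0.33 (SE 0.54, adjusted p = 0.767 by edgeR), the widest SE of the 8 members. Its 95% interval ran from 0.546-fold to 2.88-fold. Without NASH 3 the value was -0.29 (edgeR adjusted p = 0.803).

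Ly96 (ENSMUSG00000025779, chr1:16688051-16709611, plus strand) encodes MD-2, the subunit that holds the lipid part of LPS beside TLR4. It stood at 1.66, 1.20 and 1.56 CPM in steatosis and 1.53, 2.08 and 2.63 CPM in NASH. NASH 2 and NASH 3 lay above all steatosis libraries, and NASH 1 lay within their range. On the log2 scale NASH minus steatosis came to 0.48 (SE 0.31, adjusted p = 0.386 by edgeR), with an interval from 0.869-fold to 2.23-fold.

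Tlr4 (ENSMUSG00000039005, chr4:66827584-66930284, plus strand) had 2, 2 and 4 counts in steatosis 1, 2 and 3, against 3, 1 and 2 in NASH 1, 2 and 3. A difference was not detectable at this depth of 14 counts in all. Scaled to library size, the ratio of summed counts in NASH over steatosis was 1.11 with an exact 95% interval from 0.318 to 3.66, which covers counting error only. In a fit without the filter the log2 fold change was 0.14 (edgeR adjusted p = 0.957). Per kb of exon, Ly96 exceeded Tlr4 by a wide margin in every library, with 1.17 CPM per kb as the lowest value of Ly96 and 0.0375 as the highest of Tlr4.

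NASH 3 held the highest CPM of Cd14, Ly96, Tlr2 and Tlr3 among the 6 libraries, and NASH 1 the highest of Tlr4. For Tlr2 this was 0.545 against 0.536 CPM in NASH 2, and for Tlr3 1.73 against 1.67 CPM in steatosis 3. Both gaps were smaller than 1 read in NASH 3 (0.0908 CPM), and the Tlr4 rank rested on 3 counts. The 12 Kupffer markers, all of which were detected, summed to 50.5 to 55.4 CPM in steatosis and to 67.8, 39.8 and 86.3 CPM in NASH 1, 2 and 3. NASH 3 was thus also the library with the highest Kupffer sum and the highest share of rRNA-like reads. None of the 12 Kupffer markers was called by edgeR, against 4.82% of all tested genes. Their median log2 fold change was 0.29, with 9 of the 12 above 0. Vsig4, higher in NASH, was the 1 marker with an unadjusted edgeR p under 0.05 and the 1 with groups apart. Over all tested genes these shares were 23.2% and 29.3%. The part of macrophage content or of rRNA-like reads in the NASH 3 values was not tested. In bulk tissue, fewer cells of a type and less RNA per cell cannot be told apart.

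Tlr5 (ENSMUSG00000079164, chr1:182954788-182976044, plus strand), the flagellin receptor, was the most abundant of the 4 receptors per kb. Its levels were 3.51, 5.33 and 4.23 CPM in steatosis and 2.92, 3.28 and 3.09 CPM in NASH. Each NASH library lay below each steatosis library, and the NASH values were close together (3.10 ± 0.182, against 4.36 ± 0.918, SD, n = 3 each). Its log2 fold change of -0.49 (SE 0.23) did not pass (edgeR adjusted p = 0.237), with an interval from 0.497-fold to 1.02-fold. In the 6 fits that each left out 1 library it ranged from -0.61 to -0.33.

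Tlr3 (ENSMUSG00000031639, chr8:45395665-45411080, minus strand), the endosomal receptor for double-stranded RNA, did not separate the groups. It stood at 1.42, 1.14 and 1.67 CPM in steatosis and 0.903, 1.34 and 1.73 CPM in NASH. Its log2 fold change came to -0.12 (SE 0.34, adjusted p = 0.873 by edgeR), with an interval from 0.543-fold to 1.55-fold, and its sign turned without steatosis 3 (0.05) or NASH 1 (0.10). A non-coding antisense gene, Gm45542, shares 381 bp of exon with Tlr3 on the other strand and was not used here.

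Tlr2 (ENSMUSG00000027995, chr3:83836272-83841767, minus strand), the lipoprotein receptor, had 5, 8 and 13 counts in steatosis 1, 2 and 3, against 5, 8 and 6 in NASH 1, 2 and 3. That came to 0.308, 0.479 and 0.482 CPM against 0.347, 0.536 and 0.545 CPM, with overlapping groups. The ratio of summed counts was 1.08 with an exact 95% counting interval from 0.567 to 2.04. Its partner receptor Tlr1 had a log2 fold change of -0.67 (SE 0.57, adjusted p = 0.522 by edgeR), and the other partner, Tlr6, had 4 counts in all.

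**Figure D2:**
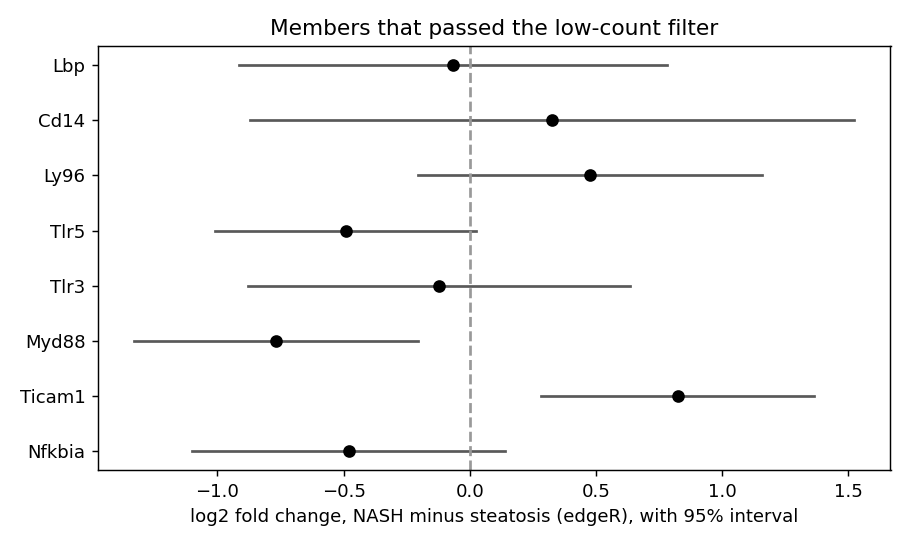
Log2 fold change of NASH against steatosis by edgeR for the 8 members that passed the low-count filter, with bars for the unadjusted 95% interval of each. The intervals of Ticam1 (0.28 to 1.36) and Myd88 (-1.33 to -0.21) lie on opposite sides of 0, and the other 6 include 0.

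The adaptors held the members' smallest p-values, with estimates on opposite sides of 0. The sequences before their RefSeq starts are shown because these genes and Nfkbia carry the comparison of the signalling arms. Each run gives 250 bases before the RefSeq start on the gene's own strand, 5′ to 3′ (RefSeq, GRCm38.p6). Capitals mark a match to the kappaB consensus, the motif that NF-kB binds, searched on both strands. Regions are chr9:119340019-119340268 (minus strand) for Myd88, chr17:56276768-56277017 (minus strand) for Ticam1 and chr12:55492648-55492897 (minus strand) for Nfkbia.
Myd88: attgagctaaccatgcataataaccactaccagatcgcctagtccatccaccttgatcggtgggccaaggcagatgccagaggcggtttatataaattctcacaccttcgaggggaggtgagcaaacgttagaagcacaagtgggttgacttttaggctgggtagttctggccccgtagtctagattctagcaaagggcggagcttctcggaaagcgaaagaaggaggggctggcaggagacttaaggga
Ticam1: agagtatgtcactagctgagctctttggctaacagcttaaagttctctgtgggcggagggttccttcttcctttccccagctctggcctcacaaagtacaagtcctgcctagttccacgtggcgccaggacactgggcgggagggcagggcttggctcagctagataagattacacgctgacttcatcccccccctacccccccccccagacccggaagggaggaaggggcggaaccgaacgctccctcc
Nfkbia: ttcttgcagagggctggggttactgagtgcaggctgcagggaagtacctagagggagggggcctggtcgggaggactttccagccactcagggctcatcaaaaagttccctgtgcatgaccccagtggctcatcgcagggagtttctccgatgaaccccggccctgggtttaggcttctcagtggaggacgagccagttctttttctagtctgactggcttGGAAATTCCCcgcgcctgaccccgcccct
Nfkbia held 1 kappaB match at bases -29 to -20, and Myd88 and Ticam1 held none in these windows. The Myd88 window lies wholly inside the GENCODE gene given below: 1 of its coding transcripts starts 23 bp and another 1393 bp before the RefSeq start, and the sequence before the latter start was not searched. The Ticam1 window overlaps its GENCODE gene by 19 bases and the Nfkbia window by 0. Of 32851 windows of this length in the RefSeq table, 7.25% held the kappaB consensus. Promoters of 6 of the 10 members were in the table. Among the other 3 of these, Tlr2 and Tlr3 held a kappaB match and Tlr5 held none, with 159, 250 and 0 of the 250 bases of Tlr2, Tlr3 and Tlr5 inside the GENCODE gene. A match describes letters only.

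Ticam1 (ENSMUSG00000047123, chr17:56269319-56276786, minus strand) encodes TRIF, the adaptor of TLR3 and of endosomal TLR4. Its counts were 83, 62 and 101 in steatosis and 130, 115 and 59 in NASH. On the CPM scale these were 5.11, 3.72 and 3.75 against 9.03, 7.70 and 5.36, so that each NASH library lay above each steatosis library, NASH 3 only narrowly. Its log2 fold change was 0.82 (SE 0.24), or 1.77-fold with an interval from 1.22 to 2.57, and it did not pass (edgeR adjusted p = 0.0799). With each library left out in turn it stayed between 0.65 and 1.01, and the adjusted p between 0.0599 and 0.224.

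Myd88 (ENSMUSG00000032508, chr9:119335934-119341411, minus strand) encodes the adaptor that every TLR other than TLR3 uses. Its counts were 134, 99 and 294 in steatosis and 74, 61 and 62 in NASH. The levels were 8.26, 5.93 and 10.9 CPM in steatosis and 5.14, 4.08 and 5.63 CPM in NASH, again without overlap, with steatosis 2 close above NASH 3. Its log2 fold change was -0.77 (SE 0.25), or 0.587-fold with an interval from 0.398 to 0.866, and it did not pass (edgeR adjusted p = 0.105). Leaving out 1 library at a time gave values from -0.96 to -0.50 and adjusted p-values from 0.101 to 0.266.

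Exons of Myd88 share 290 bp with Acaa1a on the opposite strand, a peroxisomal thiolase of fatty acid oxidation with 12753 counts over the 6 libraries. Strand use in the counting is not given in the sources used here, so reads of that stretch could not be assigned to a strand. Acaa1a stood at 195.5, 130.1 and 128.0 CPM in steatosis and 95.3, 104.9 and 92.5 CPM in NASH, a log2 fold change of -0.63 (SE 0.24, adjusted p = 0.151 by edgeR). The ratio of Myd88 to Acaa1a counts within a library differed by -0.12 on the log2 scale between NASH and steatosis (two-sided exact permutation p = 0.8). That of Ticam1 to Acaa1a counts differed by 1.40. It was 0.0262, 0.0286 and 0.0293 in steatosis and 0.0948, 0.0734 and 0.0579 in NASH. Each NASH library lay above each steatosis library for Ticam1 and below each for Acaa1a. The Ticam1 to Acaa1a ratio therefore had to separate the groups (two-sided exact permutation p = 0.1) and adds no support. With 3 libraries per group, the p of 0.8 does not show that the Myd88 to Acaa1a ratio was unchanged. The part of Acaa1a reads in the Myd88 counts was not tested.

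Within a library the ratio of Ticam1 to Myd88 counts needs no scaling of library sizes, though its Myd88 counts may hold Acaa1a reads. It was 0.619, 0.626 and 0.344 in steatosis and 1.76, 1.89 and 0.952 in NASH. Myd88 outnumbered Ticam1 in each steatosis library, Ticam1 outnumbered Myd88 in NASH 1 and NASH 2, and the counts in NASH 3 were nearly equal. On the log2 scale the mean ratio was -0.97 ± 0.50 for the steatosis libraries and 0.55 ± 0.54 for the NASH libraries (SD, n = 3 each), a difference of 1.52 with a two-sided exact permutation p of 0.1, the smallest that 3 against 3 allows. The difference stayed between 1.24 and 1.83 with 1 library left out, and was 1.98 without steatosis 2 and NASH 3. This ratio was chosen after the values of both genes were seen. Each NASH library lay above each steatosis library for Ticam1 and below each for Myd88, so the ratio had to separate the groups. Its permutation p of 0.1 and its sign with libraries left out were therefore fixed in advance and add no support.

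**Figure D3:**
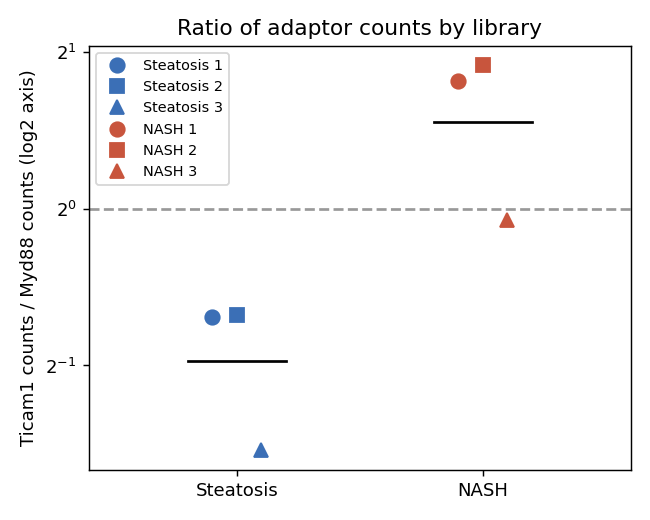
Ratio of Ticam1 counts to Myd88 counts in each library on a log2 axis, with a bar at each group's geometric mean and a dashed line at equal counts. The steatosis libraries lie between 0.344 and 0.626 and the NASH libraries between 0.952 and 1.89.

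Nfkbia (ENSMUSG00000021025, chr12:55489410-55492647, minus strand), the inhibitor that NF-kB itself induces, was the most abundant member per kb in steatosis. It stood at 14.2, 7.91 and 9.35 CPM in steatosis and 6.95, 9.98 and 5.45 CPM in NASH. Steatosis 1 was the highest and NASH 3 the lowest, but NASH 2 exceeded both steatosis 2 and steatosis 3. Its log2 fold change was -0.48 (SE 0.28, adjusted p = 0.337 by edgeR), with an interval from 0.466-fold to 1.10-fold. Without steatosis 1 the value shrank to -0.20 (edgeR adjusted p = 0.77), and without NASH 2 it was -0.73 (edgeR adjusted p = 0.204). These were the ends of its range with 1 library left out.

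The rest of the pathway was read from 7 lists with 137 distinct genes, of which 102 were tested. Of these 4 fell in NASH, 0 rose and 98 did not pass, a share of 3.92% called against 4.82% of all tested genes. The 4 were Cd36, Apoe, Igtp and Sod2. The median log2 fold change was 0.03 over the 102 genes and 0.01 over all tested genes. Of all tested genes, 23.2% had an unadjusted edgeR p under 0.05, and the groups did not overlap in 29.3%. Counts at an unadjusted p and groups without overlap in the lists below are to be read beside these shares.

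Among 10 tested of 17 other receptors and accessory proteins 1 fell and 0 rose (median log2 fold change -0.03). The 1 was Cd36, a fatty acid transporter and scavenger receptor that works with TLR2, at 37.5, 20.0 and 24.3 CPM in steatosis and 8.96, 10.6 and 6.72 CPM in NASH (log2 fold change -1.63, SE 0.27, adjusted p = 0.0128 by edgeR). It was called in each of the 6 fits with 1 library left out. At an unadjusted p under 0.05 there were 4 of the 10, Hsp90b1 and Unc93b1 higher and Cd36 and Tlr12 lower. Genes outside the panel are named here and below after their values were seen. Tlr12, which senses profilin of protozoa in mice, stood at 0.924, 1.26 and 1.15 CPM in steatosis and 0.486, 0.201 and 0.454 CPM in NASH, on 82 counts in all. Its groups were apart, and its log2 fold change of -1.55 (SE 0.44) did not pass (edgeR adjusted p = 0.0688). Hsp90b1 (gp96) and Unc93b1, which fold and transport TLRs, had 0.84 (edgeR adjusted p = 0.0688) and 0.50 (edgeR adjusted p = 0.205), also without overlap. The receptors Tlr6, Tlr7, Tlr8, Tlr9, Tlr11 and Tlr13 had from 1 to 38 counts in all and were not tested.

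Among 19 tested of 23 proximal adaptors and kinases 0 rose and 0 fell by edgeR (median 0.18), and 6 had an unadjusted p under 0.05, 5 of them higher (Tirap, Irak4, Tab1, Ikbke and Irf5) and 1 lower (Irf7). Tirap, the adaptor that brings MyD88 to TLR2 and TLR4, stood at 2.22, 2.40 and 3.49 CPM in steatosis and 4.45, 4.96 and 7.90 CPM in NASH. Each NASH library lay above each steatosis library, and the log2 fold change of 1.06 (SE 0.29) did not pass (edgeR adjusted p = 0.0607). Irak4, the first kinase of the MyD88 complex, had 0.69 (SE 0.30, adjusted p = 0.201 by edgeR) and its partner Irak1 0.35 (SE 0.19, adjusted p = 0.30 by edgeR), both without overlap between groups. Traf6, the ubiquitin ligase after the IRAK kinases, had -0.19 (edgeR adjusted p = 0.71). On the TRIF side, the kinase Tbk1 had -0.13 (edgeR adjusted p = 0.735) and the transcription factor Irf3 0.18 (edgeR adjusted p = 0.628). Ikbke, the partner kinase of Tbk1, stood at 11.7, 20.0 and 25.2 CPM in steatosis and 32.9, 27.8 and 42.1 CPM in NASH, with no overlap (log2 fold change 0.85, SE 0.28, adjusted p = 0.107 by edgeR). Irf7, an interferon-induced relative of Irf3, had a mean of 16.5 ± 1.56 CPM in steatosis and 11.3 ± 0.674 CPM in NASH (SD, n = 3 each), with the groups apart in the other direction (log2 fold change -0.55, SE 0.17, adjusted p = 0.0925 by edgeR). Neither passed. Ticam2, the bridge between TLR4 and TRIF, had 5 counts in all.

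In the NF-kB core, 0 of 11 tested of 13 genes passed (median -0.08), with 1 at an unadjusted p under 0.05. The subunits Nfkb1 and Rela had log2 fold changes of -0.08 (SE 0.19) and 0.14 (SE 0.20). Of 19 negative regulators 16 were tested and 0 passed (median 0.06, with 9 above 0). At an unadjusted p under 0.05 there were 5, 2 higher (Tnip2 and Nlrc5) and 3 lower (Tollip, Tnfaip3 and Atf3). Tnip2 had 0.54 (SE 0.23, adjusted p = 0.192 by edgeR), with groups apart, and Nlrc5 0.53 (SE 0.23, adjusted p = 0.196 by edgeR), with overlap. Tollip, which restrains IRAK1, stood at 9.55, 9.89 and 9.39 CPM in steatosis and 6.04, 6.50 and 6.36 CPM in NASH, groups that were tight and apart (log2 fold change -0.61, SE 0.18, adjusted p = 0.0744 by edgeR). Tnfaip3, the ubiquitin-editing enzyme A20 and a target of NF-kB, had -1.31 (SE 0.47, adjusted p = 0.127 by edgeR) on 102 counts in all, with no overlap. The decoy kinase Irak3 had 0.59 (SE 0.47, adjusted p = 0.487 by edgeR).

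Of 18 genes of LPS clearance and detoxification 16 were tested, 1 fell and 0 rose (median 0.11), with 6 at an unadjusted p under 0.05, 3 higher and 3 lower. It was Apoe, an apolipoprotein whose particles can bind LPS, with a mean of 7113 ± 893 CPM in steatosis against 3111 ± 538 CPM in NASH (SD over 3 libraries each; log2 fold change -1.19 with SE 0.29, adjusted p = 0.0458 by edgeR). That call held without steatosis 3 and was lost in the other 5 fits with 1 library left out, where the adjusted p reached 0.162. The lipoprotein receptor Scarb1 had -0.38 (edgeR adjusted p = 0.296), and the LPS deacylase Aoah had 25 counts in all. The list of 17 genes named for the cytosolic LPS route also holds Naip1, Naip2, Naip5, Naip6 and Nlrc4, of a route that senses bacterial proteins such as flagellin. In the data were 16 of the 17, and 12 were tested. Of these 1 fell and 0 rose (median -0.10), with 5 at an unadjusted p under 0.05, 1 higher (Naip5) and 4 lower. The 1 that fell was Igtp, an interferon-induced GTPase, at 6.84, 8.87 and 9.91 CPM in steatosis and 4.10, 3.82 and 4.36 CPM in NASH (log2 fold change -1.07, SE 0.21, adjusted p = 0.0221 by edgeR). It was called in 1 of the 6 fits with 1 library left out, that without steatosis 1. Casp4, the mouse caspase-11 that binds LPS in the cytosol, had 0.17 (SE 0.30, adjusted p = 0.791 by edgeR).

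Of 30 target genes of NF-kB 18 were tested, 1 fell and 0 rose (median -0.07). It was Sod2, the mitochondrial superoxide dismutase, at 49.9, 44.9 and 49.9 CPM in steatosis and 22.7, 22.6 and 24.7 CPM in NASH (log2 fold change -1.05, SE 0.19, adjusted p = 0.0166 by edgeR). The call was kept without steatosis 3 or NASH 3 and lost without any other 1 library. At an unadjusted p under 0.05 there were 3 of the 18, Il1b higher and Sod2 and Gadd45b lower. Il1b, a cytokine of myeloid cells, stood at 0.431, 0.420 and 0.445 CPM in steatosis and 0.695, 1.07 and 1.18 CPM in NASH on 65 counts in all. Each NASH library lay above each steatosis library, and the log2 fold change of 1.16 (SE 0.40) did not pass (edgeR adjusted p = 0.115). The acute phase genes Saa1 and Saa2 and the chemokine Cxcl1 were well counted, at 4917, 3684 and 2495 counts, but varied widely within groups. Saa1 ran from 14.2 to 74.2 CPM in steatosis and from 2.61 to 121.0 CPM in NASH, and the log2 fold changes of Saa1, Saa2 and Cxcl1 were -0.11 (SE 0.98), 0.84 (SE 1.15) and 0.35 (SE 0.79), none of which passed (edgeR adjusted p = 0.959, 0.711 and 0.834). Lcn2, an iron-withholding acute phase protein, had 0.41 (SE 0.58, adjusted p = 0.724 by edgeR). Among the 12 targets not tested were Tnf, Il6 and Ccl2, with 5, 0 and 65 counts over the 6 libraries. Of the same 12, Cxcl10 stood at 0.431, 1.26 and 0.928 CPM in steatosis and 0.139, 0.335 and 0.0908 CPM in NASH, on 61 counts in all. Cxcl2, on 18 counts, was apart in the other direction.

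**Figure D4:**
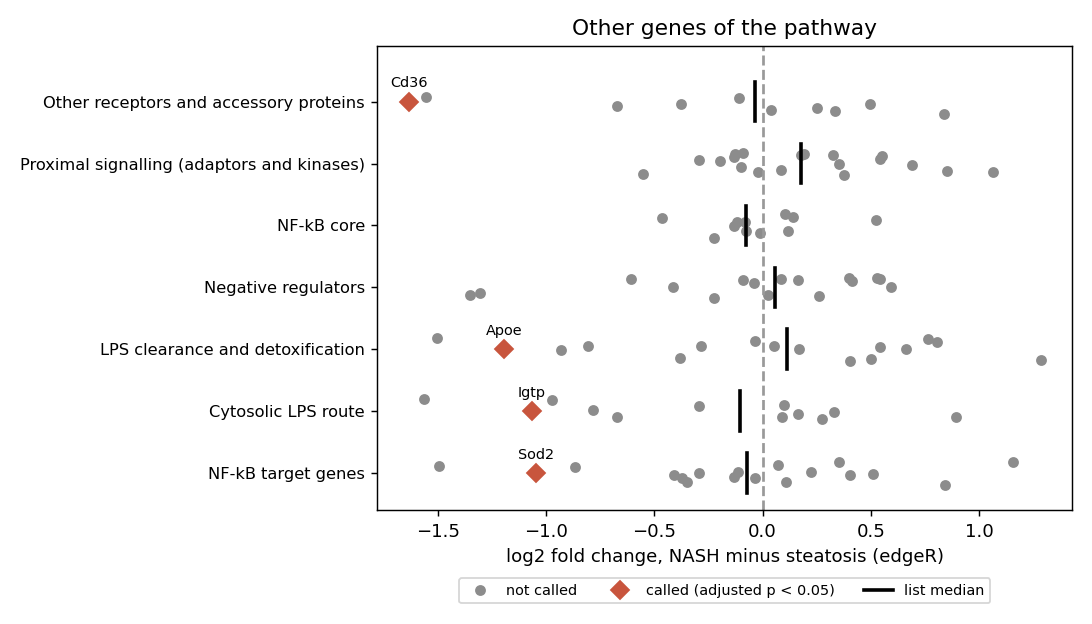
Log2 fold change of NASH against steatosis by edgeR for the tested genes of 7 pathway lists, with called genes as red diamonds and the median of each list as a black bar. Cd36, Apoe, Igtp and Sod2 are the called genes, all below 0, and the list medians lie between -0.10 and 0.18.

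Profiles most like those of Lbp, Cd14 and Tlr4 were sought over the 6 libraries by the root mean square difference of centred log2 CPM with a prior count of 2, with no p. The search and its medians covered tested genes whose symbols are no predicted models. For Lbp they were Enpp3 (0.141), Gin1 (0.146) and Zfp759 (0.160), against a median of 0.648 over these genes. For Cd14 they were Fh1 (0.201), Map3k8 (0.228) and Phyhd1 (0.229), against 0.724. Zfp759 and Phyhd1 were themselves rare, with mean log2 CPM of -0.39 and -0.50. For Tlr4 they were Khnyn (0.0248), Ppp3cb (0.0737) and Mrps30 (0.0753), against 0.422. The prior count is at least as large as the Tlr4 counts of most libraries and evens out its profile, which ran from 0.0670 to 0.208 CPM in NASH, so nothing can be read from the Tlr4 matches.

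Markers of other cell types are given by their summed levels. Neutrophil markers summed to 2.04 to 4.04 CPM in steatosis and 2.34 to 5.27 CPM in NASH, with Ngp at 0 in each library and Ly6g and Mpo at 1 count each in all. Recruited macrophage markers summed to 13.4 to 15.1 and 11.6 to 19.8 CPM, sinusoidal endothelial markers to 37.6 to 51.1 and 46.5 to 70.3 CPM, and stellate cell markers to 61.1 to 72.5 and 44.8 to 58.1 CPM. B cell markers summed to 1.86 to 9.11 and 3.81 to 10.8 CPM, T and NK cell markers to 1.15 to 2.28 and 0.938 to 2.09 CPM, and cholangiocyte markers to 23.9 to 42.0 and 12.4 to 23.3 CPM. Most of the cholangiocyte sum was Spp1, at 26.2, 38.5 and 20.7 CPM in steatosis and 16.4, 10.5 and 21.2 CPM in NASH. Its groups overlapped, and of the 3 cholangiocyte markers tested 1, Sox9, was higher in each NASH library. Csf3r and Ighm were the largest parts of the neutrophil and B cell sums. These 3 sums thus largely follow single genes. Of the markers tested in all these lists, 1 was called, the stellate cell gene Dcn, 1 of 8 tested stellate cell markers. It was lower in NASH (log2 fold change -1.03, edgeR adjusted p = 0.0348), a call lost in each of the 6 fits with 1 library left out. Over all tested genes 4.82% were called. The part of cell composition in the members' values was not tested.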

How the data were processed

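RNA was measured in 6 mouse liver samples, 3 per histological class. Libraries of polyadenylated RNA were read as pairs of 150 bp, per the labels' protocols. The authors deposited raw read counts per Ensembl gene, 1 table per library. The submitters' processing notes name TopHat2, HTSeq and mm10 (GRCm38). Versions, annotation release, strand setting and the handling of shared reads: not given in the sources used here. Symbols (37607 of 39179 identifiers) came from a gene name table, and coordinates and exon lengths from GENCODE M21.

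Counts were filtered with filterByExpr, TMM-scaled and tested with edgeR 4.0.16 in R 4.3.3, without covariates. SE was taken from the fold change and F statistic, an approximation. The 10 members were named whatever their result, as were a panel of 17 pathway genes and every called gene of the pathway lists. The members, lists and likeness rule were chosen with earlier results of these data known. Intervals of count ratios cover counting error only. Alternatives were DESeq2 1.42.0, limma-voom (limma 3.58.1), other scalings and filters, a replicate block and left-out libraries. The labels state no pairing of samples that share a replicate number. Same-numbered libraries had correlations of deviations from the group means of 0.03, -0.01 and 0.07. These values carry no test and cannot decide whether samples were paired.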

Additional observations from a re-analysis of the deposited data

How the results depend on the processing

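No member was called in the alternatives run, other than without a filter on low counts, where 1 was called higher (Ticam1) and 1 lower (Myd88). With 1 library left out, 0 members were called higher and 0 lower in each fit. The log2 fold changes of Ly96, Tlr5, Myd88, Ticam1 and Nfkbia kept their sign in all 15 alternatives. That of Lbp turned to 0.37 without steatosis 3, 0.24 without NASH 1, 0.0057 without NASH 2 and 0.0077 with library size taken over the other genes without TMM. That of Cd14 turned to -0.29 without NASH 3 and -0.56 without steatosis 2 and NASH 3. That of Tlr3 turned to 0.05 without steatosis 3 and 0.10 without NASH 1. With 1 library left out these 3 ranged from -0.50 to 0.37, from -0.29 to 0.71 and from -0.33 to 0.10. The cause was not tested. Without TMM the median of all genes shifted from 0.01 to 0.12, and 222 genes were called lower against 379. The list medians of the other receptors, of the NF-kB core and of NF-kB targets were above 0 on that scale (0.07, 0.05 and 0.01), and that of the other receptors also with upper-quartile factors (0.00237).

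Over all genes, 169 were called higher and 379 lower. Without a filter there were 535 and 912, by DESeq2 316 and 525, and without steatosis 2 and NASH 3 17 and 19. With 1 library left out the counts ranged from 29 to 170 higher and from 77 to 298 lower, in fits with fewer samples by construction. With the replicate block 153 and 313 genes and 0 members were called. Depth limits Tlr2 and Tlr4, at 45 and 14 counts in all.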
